A study of Mus musculus with 9 samples.

Results

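The transcription factor p53 is kept scarce in unstressed cells and is stabilized after DNA damage, oxidative stress or nutrient stress, when it binds to response elements near its target genes. Its targets halt the cell cycle, repair DNA or start apoptosis, and some of them, such as Mdm2, feed back to remove p53 itself. Mouse embryonic stem cells contain p53 while they divide fast, and p53 can lower the pluripotency factor Nanog in them after damage. The genes described here are p53 and its best known targets, chosen by name from a list of 10: Trp53, Cdkn1a, Mdm2, Ccng1, Trp53inp1, Aen, Bbc3, Bax, Phlda3 and Zmat3. Of these, 7 have a transcript cluster (a set of array probes read as a single value) that is annotated to them alone, with 1 cluster each, among 19938 genes with such a cluster. Cdkn1a has only a cluster shared with another gene, which is given apart, and Trp53 and Bax were not analysed here. Each of the 7 lay above the middle of the levels of all clusters tested.

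Total RNA of 9 mouse embryonic stem cell lines of the C57BL/6 background (C57BL/6J mice in the study's methods), labelled female, was read on Affymetrix arrays, with 1 array per line and 3 lines per group. The group mESCFB (lines FB1 to FB3) goes back to embryos conceived by natural mating of hormone-primed females and flushed at the blastocyst stage. The group mESCKAA (lines KAA1 to KAA3) goes back to embryos made by IVF and raised at 5% O2 in KSOM with amino acids, and the group mESCWM (lines WM1 to WM3) to IVF embryos cultured in Whitten's medium at 20% O2. Only the embryos differed in culture. Each line began from a single blastocyst, and after that all lines were treated alike, on fibroblast feeders with serum, LIF and the inhibitor pair 2i, then on gelatin, until RNA was taken at the eighth passage. The values are log2 levels, so that a difference of 1 is a doubling, and they carry no meaning across genes, only across lines. Because this is bulk RNA, fewer cells of a type and less RNA per cell cannot be told apart.

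The mean level of 12 pluripotency markers was 8.56 to 9.06 in the lines. The mean of 14 fibroblast markers lay at 5.24 to 5.38 in mESCFB, 5.38 to 5.52 in mESCKAA and 5.53 to 5.62 in mESCWM. That of 8 primitive endoderm markers was 5.92 in FB1 and 6.26 in KAA1, against 4.67 to 5.08 in the other lines. The Y-linked gene Eif2s3y stood at 4.78 in FB1, 3.72 in KAA2 and 5.19 in WM3, and at 1.77 to 2.20 in the other lines. Y-linked Uty was likewise highest there (2.63, 3.1 and 4.42). Y-linked Kdm5d was not, at 2.04, 1.96 and 2.04 there and highest in WM2 (2.46). Xist ran from 2.53 to 3.95 over the lines. The study's methods typed sex by PCR for Sry on genomic DNA and took only female lines for the arrays. The array levels above do not settle the sex of the lines, and results are also given without FB1, KAA2 and WM3. Array medians ran from 4.64 to 4.70. The mean over the lines was above these medians for all 12 pluripotency markers (6.82 or more). Those of the fibroblast markers ran from 1.82 (Lum), below these medians, to 9.12 (Vim), above them.

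Promoter sequence was read from RefSeq (GRCm38.p6) in windows from 250 bases before to 50 bases after each annotated start, which 5 of the 7 genes have. A p53 response element is built of repeats of a decamer, and the windows were searched for the p53 decamer by its name. Since it reads the same on both strands, a search of either strand finds the same matches. An exact decamer was found for 3 of these 5 genes, and in 8.36% of all 32851 windows. The stretches around it are shown for all 3 genes that hold it, Ccng1, Mdm2 and Aen. A link between these letters and the variation among the lines was not tested. Capitals mark the decamer.
Ccng1: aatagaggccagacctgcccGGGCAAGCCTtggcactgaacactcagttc
Mdm2: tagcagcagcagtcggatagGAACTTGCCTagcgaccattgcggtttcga
Aen: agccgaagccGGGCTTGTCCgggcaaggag
The Ccng1 stretch lies at chr11:40755442-40755491 on the minus strand, with its decamer 185 bases before the start. The decamer is preceded at once by a second, inexact copy, and the pair departs from the p53 element at 1 of 20 positions. Such a pair, with up to 13 bases between the copies and no more than 1 departure, is held by 1.09% of all windows. The Mdm2 stretch lies at chr10:117710915-117710964 on the minus strand, with the decamer 186 bases before the start, and its best pair departs at 4 positions, which 89.3% of all windows match or better. The Aen stretch lies at chr7:78895927-78895956 on the plus strand, with the decamer 121 bases before 1 annotated start and 10 bases after another. The best pair in its windows departs at 2 positions, which 10.1% of all windows match or better. The windows of Phlda3 and Bbc3 hold no exact decamer, which says only that these letters are not in these windows. The matches are a description and no measure of binding.

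Of the 7 p53 target genes 0 passed a test between the groups, and with all 9 lines the 95% interval of every group difference included 0. Without WM1 several differences were larger beside their standard errors, as given below. Among the genes that act on p53 itself, Mdm2, the ubiquitin ligase that marks p53 for degradation, was at 8.89, 8.94 and 9.31 in FB1, FB2 and FB3, at 8.80, 8.83 and 9.03 in KAA1, KAA2 and KAA3, and at 9.07, 8.64 and 8.58 in WM1, WM2 and WM3. FB3 was highest and WM3 lowest, and the 3 groups overlapped. Ccng1, which encodes cyclin G1, a partner of Mdm2 and a phosphatase, was at 9.79, 9.82 and 9.97 in the mESCFB lines, 9.82, 9.80 and 9.89 in the mESCKAA lines and 9.94, 9.64 and 9.62 in the mESCWM lines. Here too FB3 was highest and WM3 lowest, and WM1 stood with FB3 and KAA3 in the upper part while WM2 and WM3 lay below every other line. Trp53inp1, a stress protein that promotes p53 activity and autophagy, was at 8.15, 8.25 and 8.25 in the mESCFB lines, 8.26, 8.26 and 8.53 in the mESCKAA lines and 8.46, 8.04 and 7.73 in the mESCWM lines. Its widest spread was inside mESCWM, between WM1 and WM3.

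Phlda3 and Zmat3 are targets with roles in restraint of growth. Phlda3, an inhibitor of Akt signaling, was at 9.05, 9.12 and 9.28 in the mESCFB lines, 9.16, 9.39 and 9.29 in the mESCKAA lines and 9.40, 8.80 and 8.98 in the mESCWM lines. WM1 was the highest of the 9 lines and WM2 the lowest. Zmat3, a zinc finger protein that binds RNA, was at 7.23, 7.04 and 7.33 in the mESCFB lines, 7.19, 6.92 and 6.99 in the mESCKAA lines and 7.48, 6.93 and 7.12 in the mESCWM lines. Again WM1 was highest, and the groups overlapped.

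The remaining targets act in apoptosis. Bbc3, which encodes the BH3-only protein Puma, was at 6.14, 6.00 and 5.98 in the mESCFB lines, 6.03, 6.02 and 5.92 in the mESCKAA lines and 6.03, 6.00 and 6.00 in the mESCWM lines. Its SD over the 9 lines was 0.058, against 0.119 to 0.234 for the other 6 genes. Aen, an exonuclease that promotes apoptosis, was at 5.36, 5.77 and 5.21 in the mESCFB lines, 5.33, 5.63 and 5.59 in the mESCKAA lines and 5.79, 5.63 and 5.81 in the mESCWM lines. FB3, the highest line for Mdm2 and Ccng1, was the lowest for Aen.

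**Figure D1:**
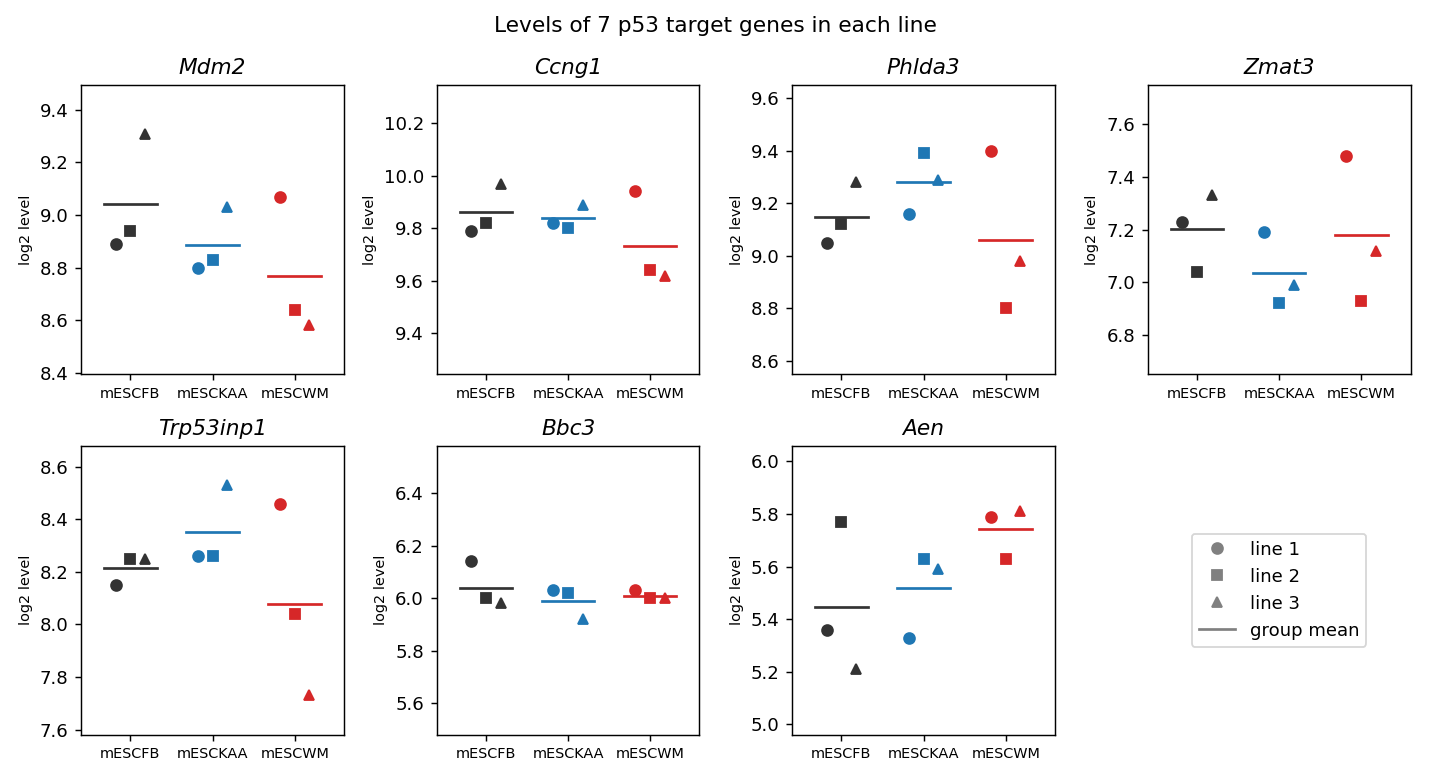
Log2 level (vertical axis, 1.1 units in every panel) of each of the 7 genes in each line, by group. Symbols are lines and bars are group means. In mESCWM, line WM1 lies above WM2 and WM3 for Mdm2, Ccng1, Phlda3, Zmat3 and Trp53inp1.

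Between mESCKAA and mESCFB, the comparison of IVF and KSOM culture with conception in vivo, 3 of the 7 genes had a mean above that of mESCFB and 4 below, of which Ccng1 and Bbc3 were above 0 (0.01 each) with quantile normalization. The largest difference was that of Zmat3, with 7.03 ± 0.14 (SD, n = 3 lines) in mESCKAA and 7.20 ± 0.15 (SD, n = 3) in mESCFB, a log2 difference of -0.17 (standard error 0.148, 95% interval -0.50 to 0.17, limma adjusted p = 0.918). Mdm2 differed by -0.16 (95% interval -0.52 to 0.21), which was -0.023 without FB3, and Ccng1 by -0.02 (-0.25 to 0.21). Trp53inp1 was the only gene of the 7 whose groups did not overlap, with every mESCKAA line above every mESCFB line by a gap of 0.0095, where 4.38% of all clusters tested were separated in this direction and 3.7% in the other. Its difference was 0.13 (95% interval -0.25 to 0.52). By limma 0 of the 7 genes passed, as did 0 of 23410 clusters (0%), and at an unadjusted p under 0.05 0 of the 7 were found against 4.81% of all clusters. By the rank product, which the study's methods use, 0 of the 7 passed in either direction, against 0.0128% of clusters that passed as higher and 0.111% as lower.

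Between mESCWM and mESCFB, the comparison of IVF and Whitten's medium with conception in vivo, 6 of the 7 genes had a mean below that of mESCFB, of which Zmat3 was above 0 (0.007) with quantile normalization. Mdm2 had the difference furthest below 0, with 8.77 ± 0.27 (SD, n = 3 lines) in mESCWM and 9.04 ± 0.23 (SD, n = 3) in mESCFB, a log2 difference of -0.28 (standard error 0.159, 95% interval -0.64 to 0.08, limma adjusted p = 0.823). Aen was the gene above 0 and had the smallest p, with 5.74 ± 0.10 (SD, n = 3) against 5.45 ± 0.29 (SD, n = 3), a difference of 0.30 (95% interval -0.04 to 0.64, limma adjusted p = 0.819). The median of the 7 differences was -0.09, and that of all clusters in the upper range of levels (from the median up) was -0.0089. Single lines moved these values in both directions. Without FB3 Mdm2 differed by -0.144 and Aen by 0.178, and without FB2 Aen differed by 0.461. Without WM3 Trp53inp1 differed by 0.035 and without WM2 Phlda3 by 0.041. Without WM1 Mdm2 differed by -0.43 (standard error 0.141) and Trp53inp1 by -0.33 (0.127) in place of -0.14. Phlda3 then differed by -0.26 (0.111) in place of -0.09 and Ccng1 by -0.23 (0.084) in place of -0.13. The limma adjusted p values of these 4 genes were 0.841 to 0.865. Intervals are given here for the fit of all 9 lines only. With all 9 lines 0 of the 7 passed limma (0% of all clusters), and 0 had an unadjusted p under 0.05 against 5.89% of all clusters. By the rank product 0 of the 7 passed, against 0.00854% of clusters as higher and 0.115% as lower. The groups overlapped for all 7 genes, whereas 3.58% of clusters lay wholly higher and 4.55% wholly lower in mESCWM. Without FB1, KAA2 and WM3, the lines with the higher Eif2s3y, 0 of the 7 passed limma in any of the 3 comparisons, and here Mdm2 differed by -0.26, Aen by 0.22 and Trp53inp1 by 0.002. The mean of the fibroblast markers was higher in every mESCWM line (5.53 or more) than in every other line (5.52 or less). Of the 14 markers 12 had a higher mean in mESCWM than in mESCFB and 8 than in mESCKAA. Acta2 had the largest of these differences (1.10 and 0.64). The part of these markers in the values of the 7 genes was not tested.

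Between the IVF groups, which differ in both medium and oxygen, so that these cannot be told apart, 3 of the 7 genes had a mean in mESCWM above that of mESCKAA, of which Bbc3 was below 0 (-0.038) with quantile normalization. Trp53inp1 had the largest difference, with 8.08 ± 0.37 (SD, n = 3 lines) in mESCWM and 8.35 ± 0.16 (SD, n = 3) in mESCKAA, a log2 difference of -0.27 (standard error 0.17, 95% interval -0.66 to 0.11, limma adjusted p = 0.799). Phlda3 differed by -0.22 (95% interval -0.56 to 0.12) and Aen by 0.23 (-0.11 to 0.57). Without WM1 the difference of Trp53inp1 was -0.47 (standard error 0.127) and that of Phlda3 -0.39 (0.111), with limma adjusted p = 0.905 for both. That of Zmat3 went from 0.14 to -0.007. Without WM3, in contrast, Trp53inp1 differed by -0.10, and without WM2 Phlda3 differed by -0.091. Aen differed by 0.131 without KAA1. By limma 0 of the 7 passed (0% of all clusters), with 0 at an unadjusted p under 0.05 against 6.29% of all clusters. By the rank product 0 passed, against 0.256% of clusters as higher and 0.047% as lower, and no gene of the 7 had groups without overlap, against 4.03% and 4.63% of clusters. Across the 3 comparisons the 95% intervals of the 7 genes reached from 0.632-fold to 1.56-fold, so a doubling or a halving of any of them lies outside its interval. Each group enters 2 of the comparisons, so they are not independent.

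**Figure D2:**
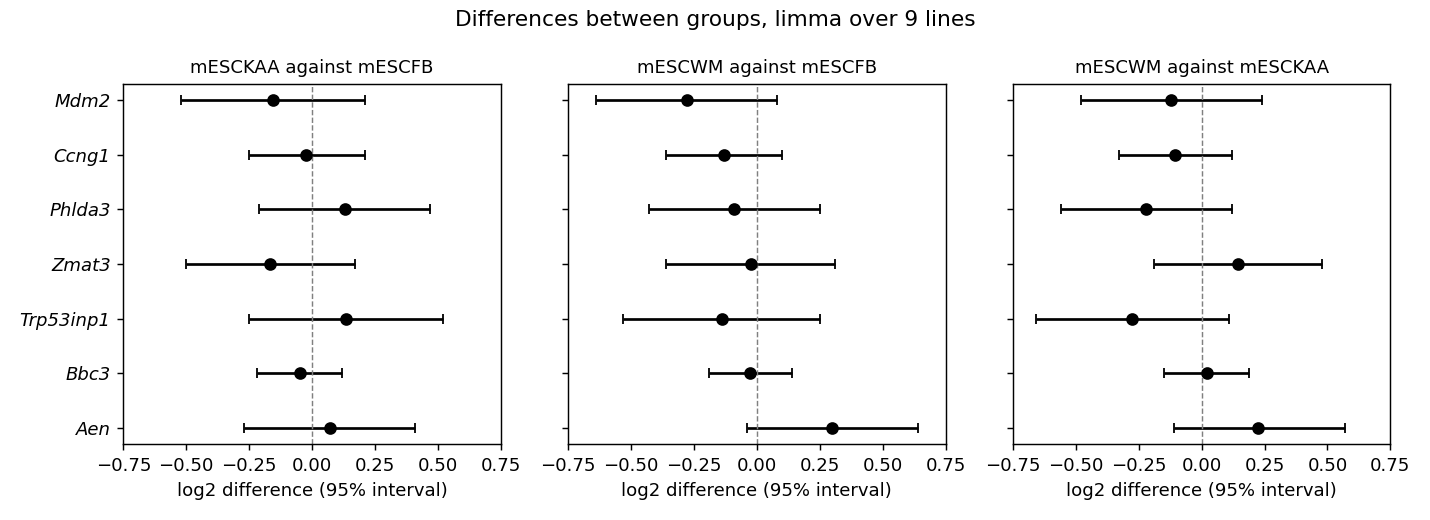
Log2 difference of each gene (points) with its 95% interval from limma (bars) in the 3 comparisons; the dashed line is 0. Every interval includes 0, and the widest reach -0.66 and 0.64.

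From line to line, Mdm2 and Ccng1 varied together. Over the 9 lines Mdm2 and Ccng1 had a Pearson's r of 0.949 (exact permutation p = 6.06e-05, adjusted p = 0.00127 over the 21 pairs of the 7 genes) and a Spearman's rho of 0.912 (exact permutation p = 0.00132, adjusted p = 0.0139). Without FB3 and WM3, the lines furthest from the median of Mdm2, r was 0.945, and leaving out each line in turn gave 0.93 to 0.969. With quantile normalization r was 0.942, and with each array centred on its median 0.954. After the group means were taken out r was 0.965 (exact permutation p = 0.00926 within groups, adjusted p = 0.0648, where the smallest p possible, 0.00463, reached by 1 pair alone would give 0.0972). Without FB1, KAA2 and WM3 r was 0.929 over 6 lines (adjusted p = 0.117, exact permutation test). Of the 21788 other clusters with a single gene, 0 had a higher r with Ccng1 than Mdm2 had, and 0 had a higher r with Mdm2 than Ccng1 had. Without WM1 these counts were 7 and 4.

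By Pearson's r no other pair of the 21 passed, and by rank 1 other did. Ccng1 and Trp53inp1 had an r of 0.829 (exact permutation p = 0.00521, adjusted p = 0.0545) and a rho of 0.736 (exact permutation p = 0.028, adjusted p = 0.147), and r was 0.525 without WM2 and WM3, the lines furthest from the median of Ccng1. Ccng1 and Phlda3 had an r of 0.809 (exact permutation p = 0.00779, adjusted p = 0.0545) and a rho of 0.745 (exact permutation p = 0.026, adjusted p = 0.147), with an r of 0.495 without the same 2 lines. Mdm2 and Trp53inp1 had an r of 0.697 (exact permutation p = 0.0383, adjusted p = 0.159), or 0.873 without FB3 and WM3, and a rho of 0.617. With the group means taken out r was 0.848 for Ccng1 with Trp53inp1 and 0.847 for Ccng1 with Phlda3. For Mdm2 with Trp53inp1 it was then 0.794 (exact permutation p = 0.00463 within groups). Mdm2 with Trp53inp1 and Ccng1 with Trp53inp1 had the same adjusted p there as Mdm2 with Ccng1 (0.0648, exact permutation test). By rank, Phlda3 and Trp53inp1 followed each other, with a rho of 0.917 (exact permutation p = 0.00131, adjusted p = 0.0139) and an r of 0.722 (exact permutation p = 0.0272, adjusted p = 0.143), or 0.717 without WM1 and WM2. All 10 pairs among Mdm2, Ccng1, Phlda3, Zmat3 and Trp53inp1 had an r above 0, from 0.198 (Zmat3 with Trp53inp1) upward. Without WM1, however, Zmat3 with Trp53inp1 had an r of -0.102 and Phlda3 with Zmat3 one of 0.079 in place of 0.352. Of the 11 pairs that involve Bbc3 or Aen, 10 had an r below 0, and Aen had its lowest r with Mdm2 (-0.441, exact permutation p = 0.235, adjusted p = 0.549) and Bbc3 its lowest with Trp53inp1 (-0.243, exact permutation p = 0.492). These values were not stable, and Mdm2 with Aen had an r of 0.349 without FB3 and WM3, Trp53inp1 with Aen one of 0.276 without KAA3 and WM3, and Bbc3 with Aen one of 0.251 without FB1 and KAA3.

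**Figure D3:**
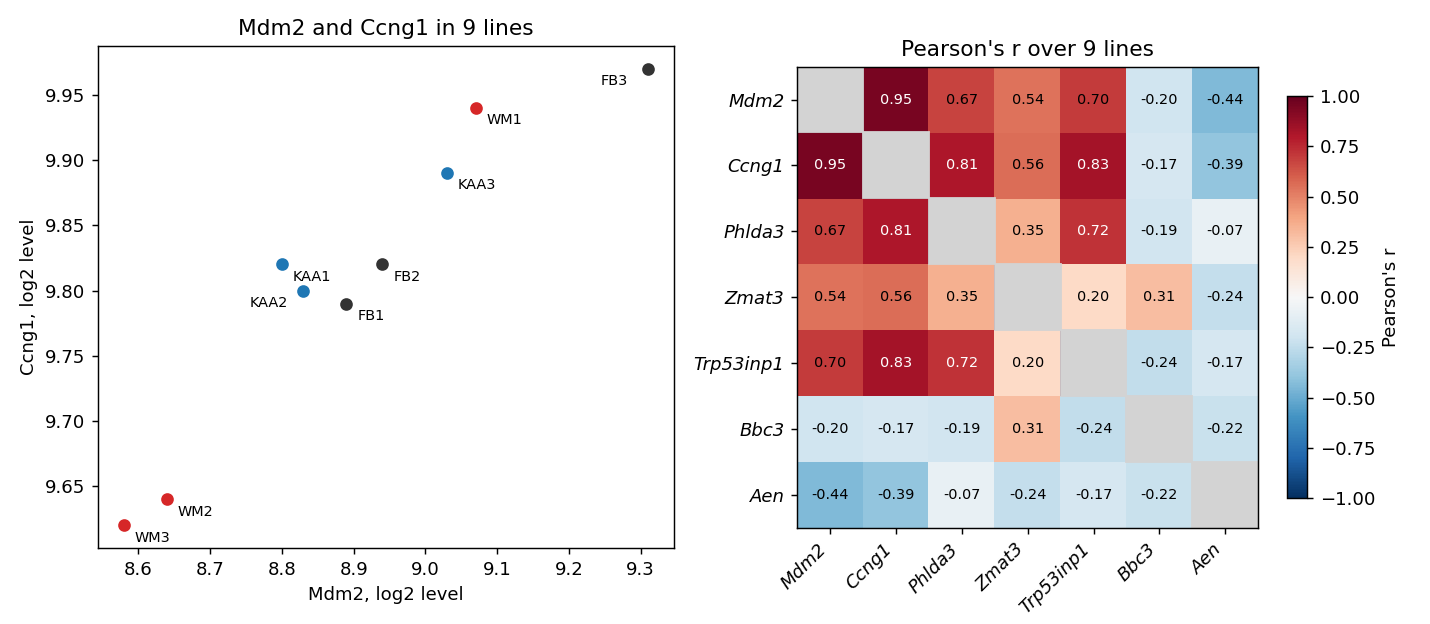
Left, log2 level of Mdm2 (horizontal axis) and Ccng1 (vertical axis), with a labelled point for each of the 9 lines, black for mESCFB, blue for mESCKAA and red for mESCWM; WM2 and WM3 lie lowest, and WM1 near FB3 and KAA3. Right, Pearson's r over the 9 lines for each pair of the 7 genes (colour scale from -1 to 1), highest for Mdm2 with Ccng1 at 0.949.

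WM1 stood apart from WM2 and WM3. Taken as the mean deviation of the 7 genes from their own means over the 9 lines, WM1 stood at 0.194, with 7 of the 7 genes above their mean, WM2 at -0.161 and WM3 at -0.136, each with 1 of the 7 above. The other 6 lines lay between -0.03 (KAA1) and 0.073 (FB3). The SD was largest in mESCWM for 5 of the 7 genes, as with Trp53inp1 at 0.37 in mESCWM, 0.16 in mESCKAA and 0.06 in mESCFB, and the difference in spread was not tested. The mean of the pluripotency markers was 8.56 in WM1, 9.06 in WM2 and 8.57 in WM3, and Nanog stood at 9.98, 10.35 and 9.09. The mean of the fibroblast markers was 5.53, 5.62 and 5.57 in the same order, and the array medians were 4.65, 4.70 and 4.65. The upper quartiles of the arrays were 6.71, 6.63 and 6.65, and ran from 6.56 (KAA2) to 6.73 (FB1) over the 9 lines. The Y-linked gene Eif2s3y stood at 1.77, 1.8 and 5.19. The part of any of these in the order of the lines was not tested.

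The cluster that is annotated to both Cdkn1a, the gene of the cell cycle inhibitor p21, and the long noncoding RNA 4930567H12Rik cannot be assigned to either gene. It was at 9.29, 9.33 and 9.51 in the mESCFB lines, 9.19, 9.44 and 9.58 in the mESCKAA lines and 9.97, 9.35 and 9.16 in the mESCWM lines, with WM1 highest and WM3 lowest. Its log2 difference was 0.03 in mESCKAA against mESCFB (95% interval -0.42 to 0.48) and 0.12 in mESCWM against mESCFB (-0.33 to 0.57, limma adjusted p = 0.948). Its r over the 9 lines was 0.695 with Trp53inp1 (exact permutation p = 0.0503, adjusted p = 0.134 over 7 genes), with a rho of 0.733 (exact permutation p = 0.0311, adjusted p = 0.0591). Without KAA3 and WM1 that r was 0.555. With Mdm2 it was 0.617 (exact permutation p = 0.0797, adjusted p = 0.14), with a rho of 0.767 (exact permutation p = 0.0214, adjusted p = 0.0591), and r was 0.706 without KAA3 and WM1. The r was 0.656 with Ccng1, 0.645 with Phlda3 and 0.487 with Zmat3, the last -0.194 without WM1. It was 0.206 with Aen and -0.215 with Bbc3. The rho was 0.1 with Zmat3 and -0.0586 with Aen.

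A further list of 38 p53 targets was set beside the pattern of the lines. Of the 36 measured, 12 (33.3%) had an r of at least 0.5 with the mean deviation of the 7 genes, where 8.3% of all 21782 other clusters with a single gene did, and 11.6% of those in the upper range of levels. Their median r was 0.41, against -0.025 for all these clusters. Without WM1 the shares were 38.9% of the targets, 11.9% of all these clusters and 15.1% of those in the upper range, and with the group means taken out 44.4%, 12.8% and 18.2%. These r values share the 9 lines and are given as a description. Highest was Polk, a DNA polymerase that copies past damage, at 0.895, with levels of 5.56, 5.60 and 5.91 in the mESCFB lines, 5.66, 5.71 and 5.70 in the mESCKAA lines and 6.00, 5.41 and 5.09 in the mESCWM lines. Ckap2, a protein of the mitotic spindle (0.86), Ercc5, a nuclease of excision repair (0.826), and Perp, a membrane protein of cell adhesion and apoptosis (0.815), followed, and these 4 were named after their values were seen. Pmaip1, the BH3-only protein Noxa, had an r of 0.794 and levels of 6.69, 6.31 and 6.93 in the mESCFB lines, 6.61, 6.67 and 6.90 in the mESCKAA lines and 6.78, 5.97 and 6.17 in the mESCWM lines. Of the 36 targets, 28 had an r above 0. Others ran the opposite way, such as Tigar, an enzyme that lowers glycolysis (-0.77), and Dram1, a lysosomal protein of autophagy (-0.568), both named after their values were seen. Sesn1, a sestrin that lowers mTORC1 signaling, had one of 0.442, which was 0.026 without WM1.

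**Figure D4:**
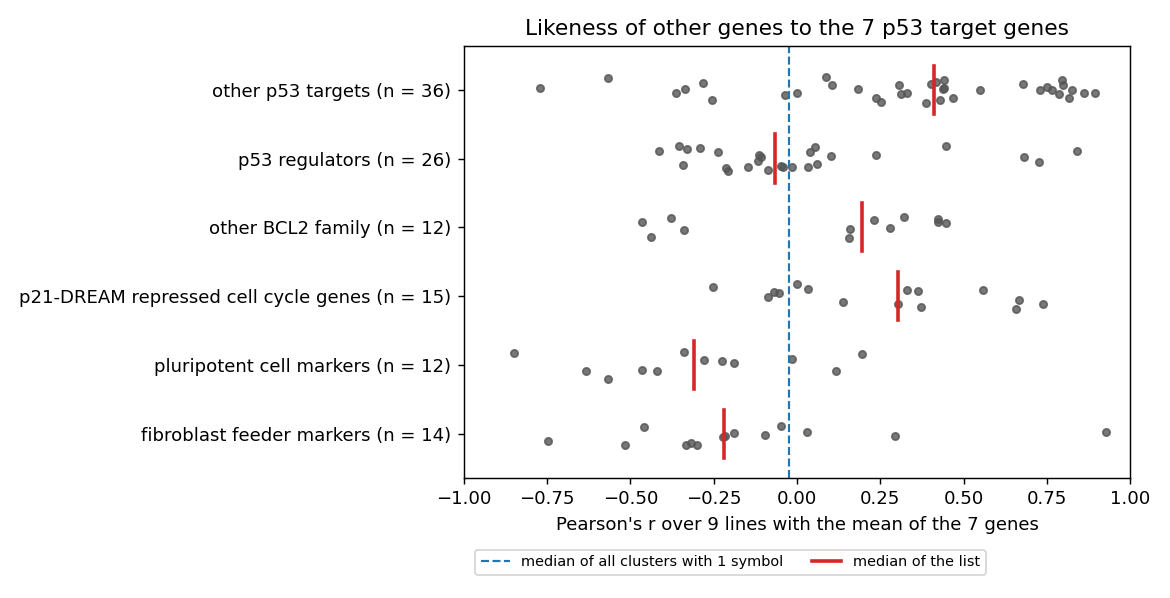
Pearson's r over the 9 lines between each gene (points) and the mean of the 7 p53 target genes, by gene list, with the median of each list (red bars) and that of all clusters with 1 symbol (dashed line, -0.025). The other p53 targets have a median of 0.41 and the p53 regulators one of -0.067. The trophectoderm markers (median 0.452) and the primitive endoderm markers (-0.254) are not drawn. Points are spread vertically only to keep them apart.

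The genes that control p53 were a list of 28. The 26 measured had a median r of -0.067 with the mean of the 7 genes, and 3 (11.5%) reached 0.5. The share was 8.3% among all other clusters with a single gene and 11.6% among those in the upper range of levels. Mdm4, the partner of Mdm2 that blocks p53 activity, had an r of 0.06, and Cdkn2a, whose product Arf restrains Mdm2, one of 0.038. Of 12 other members of the BCL2 family, which set the threshold of apoptosis, 0 reached 0.5 (median 0.195). The 15 mitotic genes that p53 lowers through p21 and the DREAM complex had a median r of 0.304, with 4 (26.7%) at or above 0.5. Without WM1 their median was 0.092 and 20.0% reached 0.5, against 11.9% of all these clusters and 15.1% of those in the upper range. Nanog had an r of 0.116 and the 12 pluripotency markers a median of -0.309. The 14 fibroblast markers had a median of -0.22, with 1 above 0.5, Twist1, a mesenchymal transcription factor (0.928). The 8 trophectoderm markers had a median of 0.452 and the 8 primitive endoderm markers one of -0.254, with 0 at or above 0.5 in both lists. Without WM1 the trophectoderm median was 0.415 with 25.0% at or above 0.5, and with the group means taken out 0.47 with 37.5%. The further p53 targets had medians of 0.395 and 0.483 in these settings. With the group means taken out 33.3% of the mitotic genes, 25.0% of the BCL2 genes and 11.5% of the regulators reached 0.5. Among all these clusters 12.8% did, and 18.2% of those in the upper range.

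In the group comparisons 0 of the 36 further targets passed limma in any comparison. At an unadjusted p under 0.05 there were 1 of 36 in mESCKAA against mESCFB, 5 in mESCWM against mESCFB and 6 in mESCWM against mESCKAA, where the shares of all clusters were 4.81%, 5.89% and 6.29%. Above 0 lay 12, 16 and 19 of the 36, where 52.3%, 51.5% and 47.8% of all clusters did. The smallest p belonged to Eda2r, an X-linked receptor of the TNF receptor family (log2 difference -0.74, limma adjusted p = 0.918), in mESCKAA against mESCFB, where Ei24 (-0.18) and the repair gene Ddb2 (-0.24) followed. In mESCWM against mESCFB it belonged to Cyfip2, a subunit of the WAVE complex (0.46, limma adjusted p = 0.808), with Plk3, a stress kinase (-0.67), and Pmm1 (-0.34) next. Between the IVF groups Cyfip2 again came first (0.48, limma adjusted p = 0.752), before Gadd45a, a damage response gene (-0.54), and Pmm1 (-0.36). Pmaip1 differed by 0.09 in mESCKAA against mESCFB, -0.34 in mESCWM against mESCFB and -0.42 between the IVF groups, and Sesn1 by -0.20, 0.09 and 0.30 in the same order.

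Of the 26 regulators 0 passed limma, and 0, 1 and 3 had an unadjusted p under 0.05 in these 3 comparisons, against the same shares of all clusters (4.81%, 5.89% and 6.29%). In mESCKAA against mESCFB 18 of the 26 lay below 0, with a median of -0.103, against -0.029 for clusters in the upper range of levels. Ppp1r13b (-0.20), the ubiquitin ligase Rchy1 (-0.21) and the checkpoint kinase Chek2 (-0.25) had the smallest p. Rchy1 (-0.34), Trp53bp1 (0.24) and Trp73, a relative of p53 (-0.28), did so in mESCWM against mESCFB, and Atr, a kinase of the replication stress response (0.45), Ppp1r13b (0.25) and Trp53bp1 (0.34) between the IVF groups. Mdm4 differed by -0.11, 0.05 and 0.16 and Cdkn2a by 0.24, 0.12 and -0.12. In the BCL2 family 0 of 12 passed, and the smallest p belonged in turn to Bik (0.34), Hrk (0.20) and Bmf (0.11), all BH3-only genes. In the mitotic genes 0 of 15 passed, and 1, 6 and 10 of the 15 lay above 0, where 52.3%, 51.5% and 47.8% of all clusters did. The medians of the 15 were -0.053, -0.028 and 0.07, against -0.029, -0.009 and 0.02 for clusters in the upper range of levels. There the smallest p belonged in turn to Prc1, a protein of the spindle midzone (-0.26), and the mitotic kinases Aurkb (0.23) and Plk1 (0.18). Nanog differed by -0.36, 0.26 and 0.62, with a standard error of 0.414 in each.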

How the data were processed

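RNA of 9 lines was hybridised to Affymetrix mouse gene arrays, and the authors deposited log2 values made by RMA in affylmGUI, which corrects the background and normalizes the arrays to each other (the submitters' processing notes name Affymetrix Expression Console and R 3.1.0). Values ran from 0.56 to 13.3, and with 3 arrays per group their number sets the precision. The genome build was not given in the sources used here. Clusters were named through the platform's annotation. Of 35556 clusters, 23410 have a gene and were tested, 21789 with 1 symbol and 1621 with several, and 12146 have none. For a listed gene with several clusters, that with the highest mean was used.

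Groups were compared by a linear model of all 9 lines with 1 mean per group (limma 3.58.1, run in R 4.3.3, moderated by eBayes, two-sided, Benjamini-Hochberg adjusted p under 0.05) and with the rank product (numpy 2.4.6, Python 3.11.15, 9 pairwise differences, 100 permutations within arrays, percentage of false positives under 0.05 per direction). The labels do not say that lines came from separate parents, so p-values measure the spread between these lines. Pairs of genes were tested over all orders of the 9 lines, two-sided. As 3 of the 10 genes have no cluster of their own, 21 pairs were tested in place of those planned, and the planned search for genes like Cdkn1a and Trp53 was not made. The members and lists were chosen with earlier results of these data known. Named genes are the 7 members, up to 3 per list with the smallest p in each comparison, and Nanog, Mdm4, Sesn1, Pmaip1 and Cdkn2a. Twist1, Polk, Ckap2, Ercc5, Perp, Tigar and Dram1 fall outside this rule. Alternatives were other sets of clusters, quantile normalization, median centring, robust eBayes with a trend (statmod), only the lines of the groups compared, a replicate block, a percentage of false positives under 0.10, and lines left out. On simulated data for mESCKAA against mESCFB with 23410 clusters, limma recovered 75% of changes of 1 and 97% of changes of 2 on the log2 scale with 10 false calls, and the rank product 89% and 100% with 56. For the rank product the false calls were more than the nominal 0.05 share of its calls. The simulated noise was normal and independent between lines, and changes below 1 were not simulated. The differences of the 7 genes were 0.298 or less in size, so these shares do not give the power for them.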

Additional observations from a re-analysis of the deposited data

How the results depend on the processing

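The counts of p53 target genes that passed limma or the rank product were 0 in every alternative run, the fit with the replicate block included, and adjusted p values of the 7 genes ranged from 0.629 to 1. The numbers were not taken as a pairing, because the design gives none, though the data hint at one. Deviations of same-numbered lines correlated at -0.0134 to 0.328, with 5 of 9 pairs over 0.1. The highest was that of FB1 with KAA1, the lines with the higher primitive endoderm markers, and the part of these markers was not tested. The highest value for lines of different number was 0.1316 (FB3 with KAA2). Of the 9 lines, 8 correlated best with a line of their own number. The pairs of genes were not tested with the numbers taken out. With the replicate block limma passed 0 of all clusters, as without it, and 1443, 1714 and 1876 clusters had an unadjusted p under 0.05. The number of pairs that passed by Pearson's r was 1. It was 2 with quantile normalization (Ccng1 with Trp53inp1 added), 0 after removal of the group means and 0 without FB1, KAA2 and WM3, an alternative chosen for the pairs after seeing the data. With lines left out in turn it was 1 to 3. The 3 came without FB3 (Mdm2 with Trp53inp1 and Ccng1 with Trp53inp1 added), and 2 without KAA2 (Ccng1 with Phlda3 added).

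Some differences, none of which had passed a test, changed sign. With quantile normalization Ccng1 (0.01) and Bbc3 (0.01) did so in mESCKAA against mESCFB, Zmat3 (0.007) in mESCWM against mESCFB and Bbc3 (-0.038) between the IVF groups. Without FB1, KAA2 and WM3, Aen (-0.026) and Mdm4 (0.074) did so in mESCKAA against mESCFB, and Zmat3 (0.019), Trp53inp1 (0.002), Bbc3 (0.026) and Cdkn2a (-0.045) in mESCWM against mESCFB. With 1 line left out, values in mESCKAA against mESCFB ran from -0.058 to 0.03 for Ccng1, -0.079 to 0.0 for Bbc3, -0.047 to 0.235 for Aen, -0.223 to 0.008 for Mdm4 and -0.083 to 0.229 for Pmaip1. In mESCWM against mESCFB they ran from -0.26 to 0.041 for Phlda3, -0.175 to 0.101 for Zmat3, -0.332 to 0.035 for Trp53inp1, -0.059 to 0.021 for Bbc3, -0.041 to 0.224 for Cdkn2a, -0.06 to 0.198 for Mdm4, -0.01 to 0.62 for Nanog and -0.099 to 0.35 for Sesn1. Between the IVF groups they ran from -0.007 to 0.269 for Zmat3 and -0.015 to 0.041 for Bbc3. The cause was not tested.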
